A study of Mus musculus with 18 samples.

Results

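The serpin family of serine protease inhibitors was examined in the right kidney of male C57BL/6 mice under chronic social defeat stress (CSDS). The members were all genes whose symbol begins with Serpin, without those whose symbol ends in -ps, which gave 49 of the 32675 genes measured. Wild type mice, obtained at 6 weeks of age, fell into 3 groups of 6. Acclimatization and the period of defeat came before the kidneys were taken, so the mice were older by then. Mice of the Ctrl group were handled but not defeated. Mice of the PBS group (StressPbs in the labels) met an aggressor of the CD-1 strain on 14 days, for 10 min each day, and received injections of phosphate-buffered saline. Mice of the FLX group (StressFlx) were defeated in the same way and injected daily with fluoxetine, a selective serotonin reuptake inhibitor, at 10 mg per kg. The paper names no injection of the Ctrl mice, so comparisons with Ctrl cannot tell defeat from injection. No undefeated mice received fluoxetine. Levels are given in FPKM, the fragments of a gene scaled to transcript length and to the mapped reads of the library, and fold changes come from edgeR's quasi-likelihood test on the counts. A gene was called where its adjusted p, corrected over all genes tested by the Benjamini-Hochberg method, was under 0.05. The study deleted 1 PBS mouse without naming it. It was taken to be PBS replicate 6, so that the PBS group held 5 mice unless all 6 are named.

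Serpins share a fold with an exposed reactive centre loop that serves as bait for a protease. Once the loop is cut, the serpin changes shape and traps the protease in a covalent complex, so that each inhibitor molecule is used once. Clade A holds secreted inhibitors of the alpha-1 antitrypsin type, clade B holds inhibitors that act inside cells, and the other clades include regulators of coagulation, plasmin and complement. A few serpins inhibit no protease, such as the collagen chaperone Serpinh1 and the hormone carriers Serpina6 and Serpina7.

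PBS replicate 6 stood apart from the other 17 mice in marker genes of several cell types. Its summed hepatocyte markers (10 genes) came to 654 FPKM, against 76.4 to 134 in the other mice. The excess lay in the fibrinogen genes Fga (266 FPKM) and Fgg (281 FPKM), while the defining marker Alb was at 1.25 FPKM. Its summed proximal tubule markers (8 genes) came to 1156 FPKM, against 2092 to 2912 in Ctrl, 1828 to 1979 in the 5 other PBS mice and 2053 to 2526 in FLX. The PBS and Ctrl sums thus did not overlap. The list as a whole did not fall in PBS versus Ctrl. Of its 8 genes, 4 had a log2 fold change above 0 (median 0.04), and only Cyp4b1 was called, as lower. PBS replicate 5 and FLX replicate 5 held 1683 and 1717 FPKM of summed fat markers (10 genes), against 21.4 to 307 in the Ctrl mice. Summed neutrophil markers (11 of 12 genes found) were 1.44 to 3.39 FPKM in Ctrl, 7.24 to 26.2 in the 5 PBS mice and 0.453 to 5.83 in FLX. The proximal tubule markers were high in each mouse, as for kidney tissue, and no listed marker was at 0 in every mouse. In whole tissue, fewer cells of a type and less RNA per cell cannot be told apart.

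The serpin transcripts of the undefeated kidney were dominated by 8 genes, which together made 93.4% of the summed serpin FPKM of 493 in the Ctrl mice. Serpina1d, a copy of alpha-1 antitrypsin, stood at 146 ± 22.6 FPKM (SD, n = 6) and Serpinf2, the plasmin inhibitor alpha-2 antiplasmin, at 145 ± 27.7 FPKM, and these did not differ beyond their spread. After them came Serpina1f at 42.9 ± 8.48, Serpina1a at 34.8 ± 9.20 and Serpinh1 at 32.9 ± 5.68 FPKM, whose spreads also overlapped. Serpina1c stood at 25.8 ± 5.46, Serping1, the C1 inhibitor of complement, at 21.2 ± 2.12 and Serpina1b at 11.8 ± 1.82 FPKM. A further 8 genes had Ctrl means of 1 to 10 FPKM, led by the intracellular inhibitors Serpinb1a at 7.72 ± 1.31 and Serpinb9 at 6.99 ± 0.766 FPKM. The other 33 genes had Ctrl means under 1 FPKM. Liver is the main source of plasma antithrombin (Serpinc1) and heparin cofactor 2 (Serpind1), and their kidney transcripts were at 0.206 ± 0.0508 and 0.0198 ± 0.0345 FPKM.

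**Figure D1:**
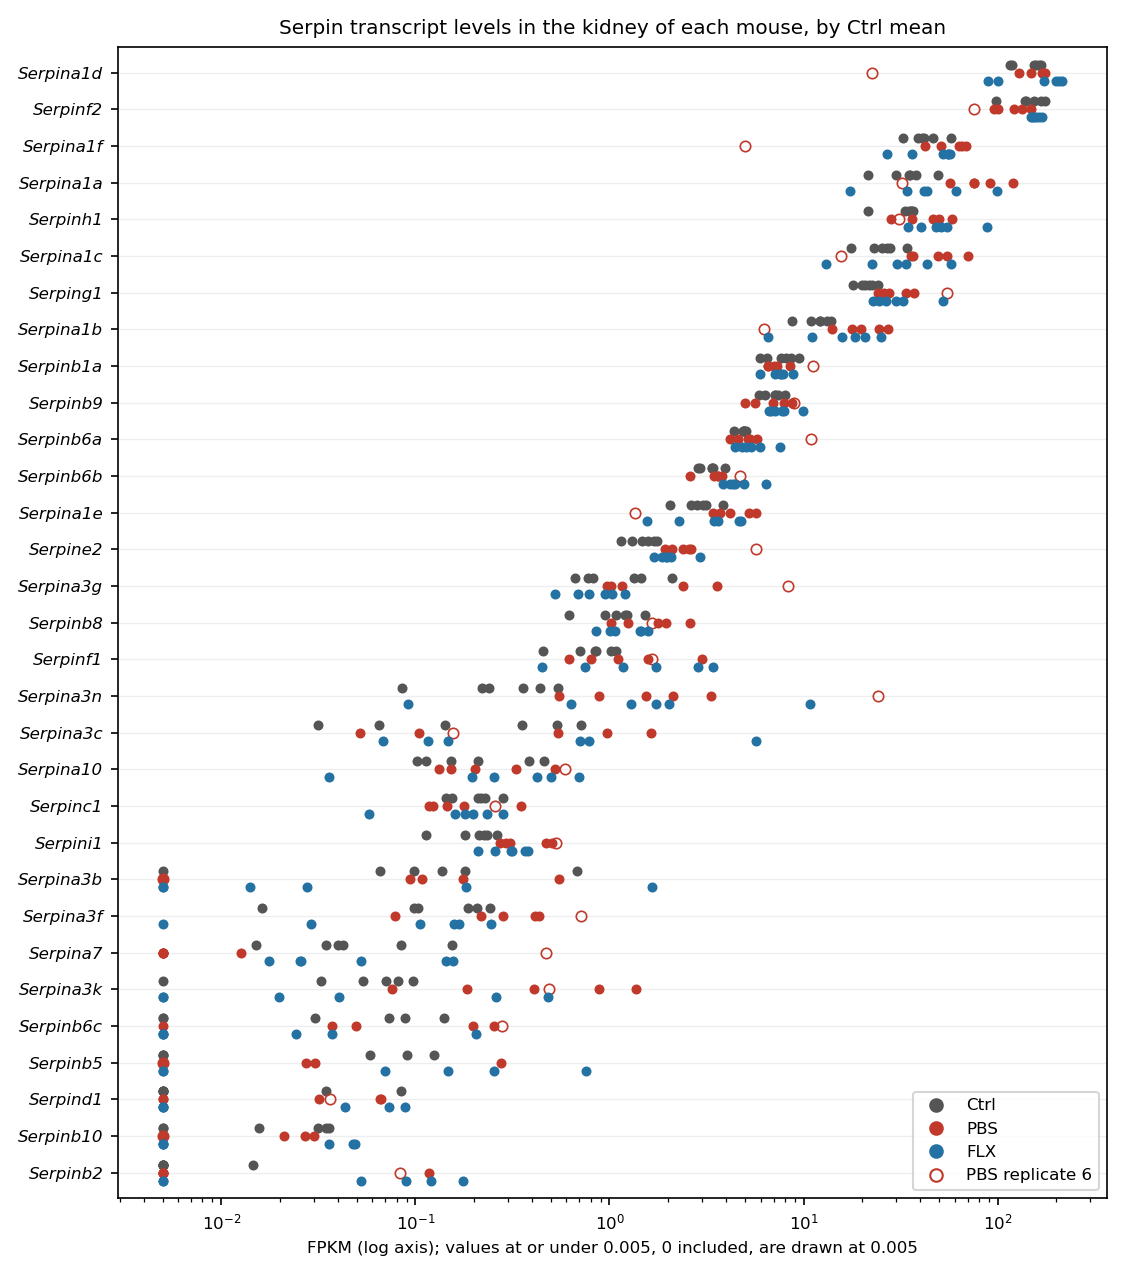
FPKM of 31 tested serpin genes in each of the 18 mice, on a log axis, ordered by the Ctrl mean; grey points are Ctrl, red PBS and blue FLX mice, the open circle is PBS replicate 6, and values of 0 are drawn at 0.005. Serpina1d and Serpinf2 lead the order, and the open circle lies far below the other PBS mice for Serpina1d and Serpina1f and far above them for Serpina3n.

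Of the 49 genes, 32 passed the filter on low counts and were tested (30 with all 6 PBS mice). The tested genes included 14 of the 24 in clade A and 9 of the 15 in clade B. The 17 untested genes reached at most 0.642 FPKM in any mouse, and each had a count in at least 1 mouse. They include Serpina6, corticosteroid-binding globulin, which was listed at 0 in all Ctrl and PBS mice and at 0.0216 and 0.0359 FPKM in FLX replicates 2 and 4. Counts and medians over the 32 describe those genes and not the whole family. They count the alpha-1 antitrypsin copies Serpina1a to Serpina1e as separate genes, although these share stretches of sequence and are not independent cases.

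In PBS versus Ctrl, 4 of the 32 tested serpins were called by edgeR at an adjusted p under 0.05, against 3.81% of the 20251 genes tested. Serpina1a, Serpine2 and Serpini1 were higher in the PBS mice and Serpina7 was lower. At an unadjusted p under 0.05, 13 serpins passed, 12 of them higher, where 17.9% of all genes passed and 9.18% passed as higher. The log2 fold change was above 0 for 26 of the 32, and its median was 0.63, against 48.9% of all genes above 0 and a median of -0.01. The PBS and Ctrl values did not overlap for 8 of the 32, where 3.52% of all genes had groups that do not overlap. With all 6 PBS mice, 4 of 30 were called, against 4.28% of all genes, and the groups did not overlap for 4, against 2.75% of all genes. Only Serpine2 and Serpini1 were called with both 5 and 6 PBS mice. Serpina1a and Serpina7 were lost, and Serpina3n and Serping1 came in. DESeq2 called 8 of the 26 with an adjusted p, against 7.91% of all genes with one, and limma on log2(FPKM + 0.1) called 2 of 32, Serpina1a and Serpine2, against 3.8%. The threshold of the study, an unadjusted p under 0.05 and an absolute log2 fold change over 1, took in 5, among them Serpina1a, Serpina3k, Serpina3n and Serpina7, against 3.28% of all genes.

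**Figure D2:**
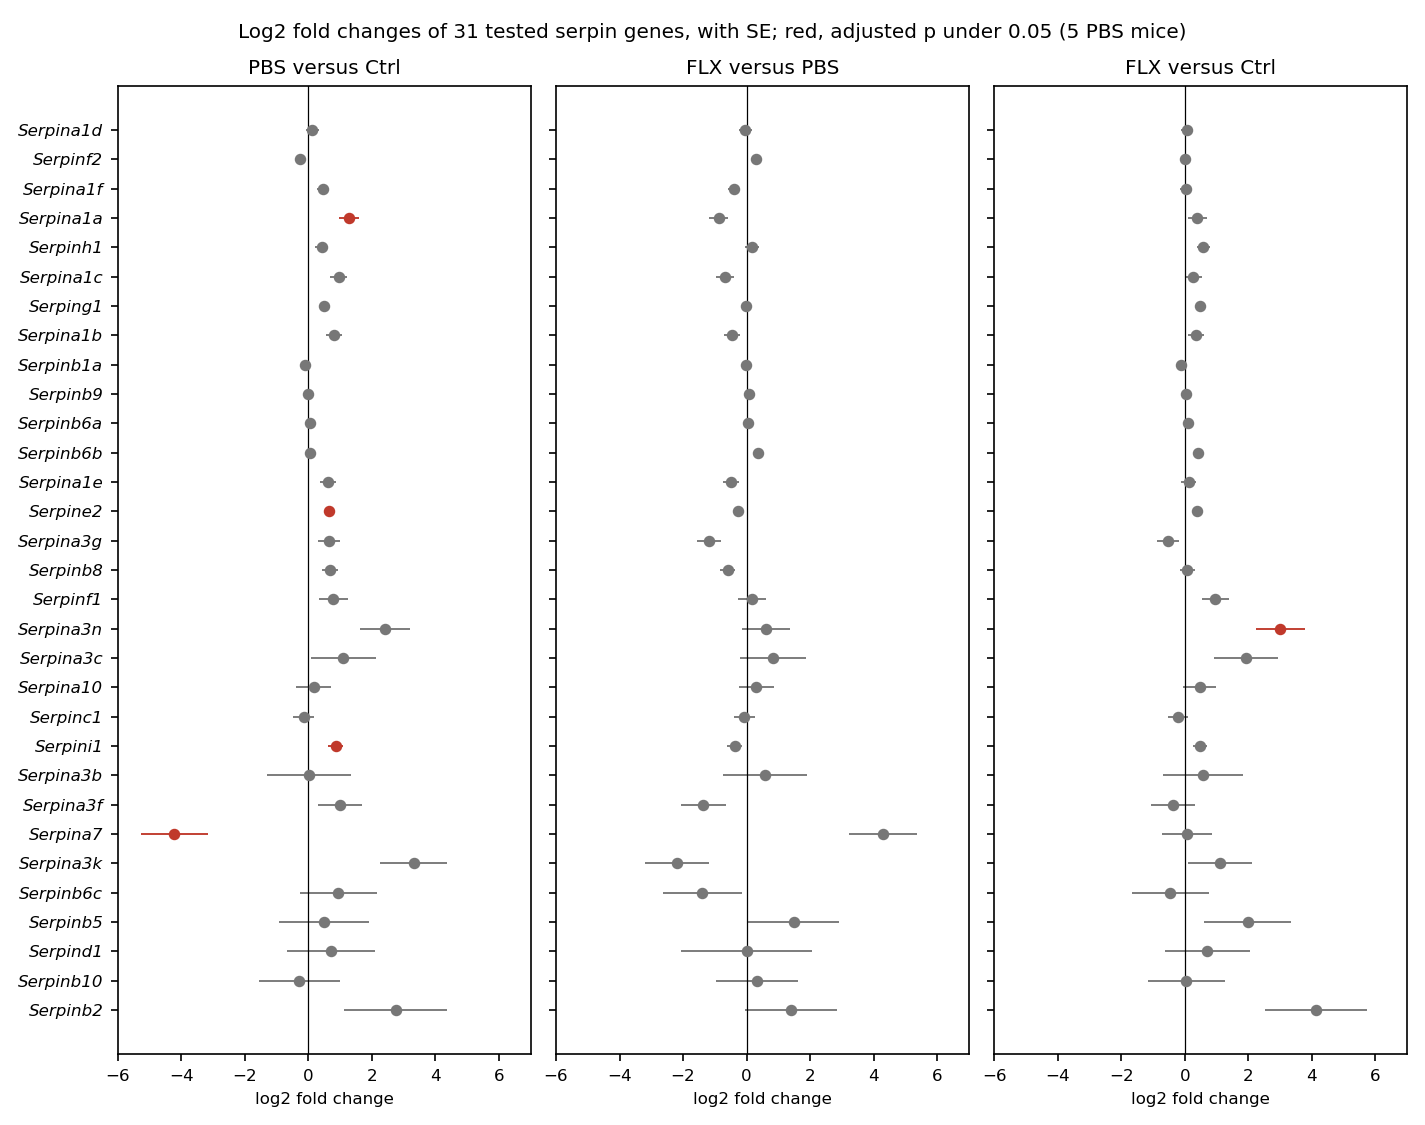
Log2 fold changes of 31 tested serpin genes with their SE in the 3 comparisons, from edgeR without PBS replicate 6; red points have an adjusted p under 0.05. In PBS versus Ctrl, 25 of 31 points lie right of 0 and 4 are red, in FLX versus PBS none is red, and in FLX versus Ctrl Serpina3n alone is red.

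Mice carry several copies of the alpha-1 antitrypsin gene, the secreted inhibitor of neutrophil elastase, and the 5 copies Serpina1a to Serpina1e lie side by side on chromosome 12. The listed levels of the copies did not change in proportion between Ctrl and PBS. Serpina1a was at 21.5 to 49.3 FPKM in Ctrl (median 35.1) and at 75.7, 119.9, 75.5, 91.5 and 56.5 FPKM in PBS replicates 1 to 5. Each of these 5 mice lay above every Ctrl mouse. The mean rose from 34.8 ± 9.20 (SD, n = 6) to 83.8 ± 23.7 FPKM (n = 5), a log2 fold change of 1.28 ± 0.31 (SE, edgeR adjusted p = 0.0265). PBS replicate 6 was at 32.1 FPKM, within the Ctrl range. With all 6 PBS mice the log2 fold change came to 1.11 and the edgeR adjusted p 0.0657. The call was also lost on leaving out any of Ctrl replicates 1, 2, 4 and 5 or PBS replicates 1, 2 and 4, with edgeR adjusted p up to 0.0649. Of 13 alternative fits, 12 kept it.

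The other copies moved less. Serpina1c went from 25.8 ± 5.46 to 49.5 ± 14.5 FPKM and Serpina1b from 11.8 ± 1.82 to 20.7 ± 5.25 FPKM, with log2 fold changes of 0.95 and 0.81 that missed the threshold (edgeR adjusted p = 0.0640 and 0.0799). For both, all 5 PBS mice lay above all 6 Ctrl mice. Serpina1e went from 2.91 ± 0.588 to 4.44 ± 0.983 FPKM (log2 fold change 0.62, edgeR adjusted p = 0.175). Serpina1d, the most abundant copy, had a log2 fold change of 0.12 ± 0.20 (edgeR adjusted p = 0.813), with 116 to 167 FPKM in Ctrl and 128 to 175 FPKM in the 5 PBS mice. Its log2 fold change with all 6 PBS mice was -0.10. Serpina1f, a more distant relative in the same cluster, was at 42.9 ± 8.48 and 58.2 ± 11.1 FPKM (log2 fold change 0.45, edgeR adjusted p = 0.208).

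Because the ratio between copies within a mouse does not depend on the scaling of its library, each copy was also taken as a share of the sum of the 5, a measure chosen after its values were seen. Serpina1a made 12.9% to 18.8% of the sum in Ctrl and 23.7% to 30.1% in the 5 PBS mice, with no overlap. Its mean share was 15.6% ± 2.00 (SD, n = 6) and 26.1% ± 2.90 (n = 5), and the exact two-sided permutation test gave p = 0.00433, the smallest that 5 against 6 mice can give (Benjamini-Hochberg adjusted p = 0.0390 over 18 tests of this kind). The share of Serpina1d went the other way, from 66.1% ± 2.79 to 50.6% ± 5.25, with the same exact permutation p of 0.00433. The 5 shares are parts of the same sum, so this fall is tied to the rise of the other copies and is not a separate result. As the measure was chosen after its values were seen, these p-values are descriptive. In PBS replicate 6 the shares were 41.3% for Serpina1a and 28.9% for Serpina1d, past the other PBS mice in the same direction, although its summed level of 77.9 FPKM was far below the 238 to 398 FPKM of the other 5.

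**Figure D3:**
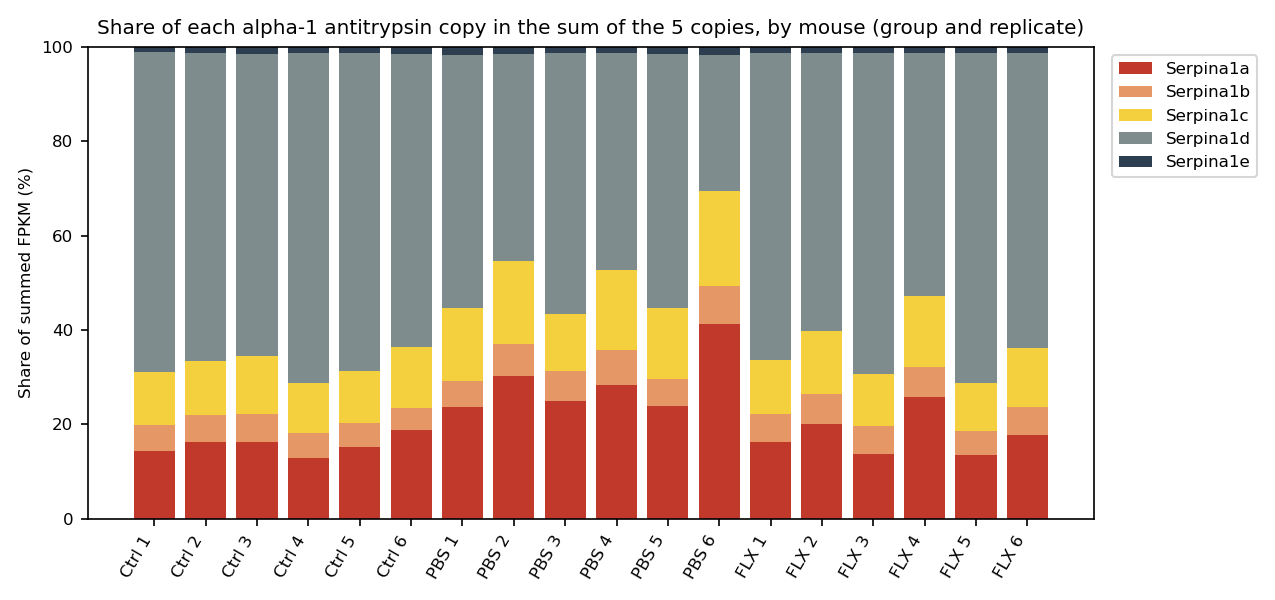
Share of each of the 5 alpha-1 antitrypsin copies in their summed FPKM, as stacked bars for each of the 18 mice. The red Serpina1a part makes 12.9% to 18.8% in the Ctrl mice, 23.7% to 30.1% in PBS replicates 1 to 5, 41.3% in PBS replicate 6 and 13.5% to 25.7% in the FLX mice.

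Reads from near-identical copies can be assigned to the wrong one, so the split between copies is uncertain. Of the 150-base windows along the longest coding transcript, another gene held an exact copy of 40.7% for Serpina1a, 50.5% for Serpina1c, 23.3% for Serpina1d, 16.4% for Serpina1b and 7.57% for Serpina1e. The windows held outside the cluster were in Gm8893. How the counting shared such reads was not tested. Serpina3h was not examined. In the rest of the family, windows were found shared only by Serpina3k and Serpina3m (0.262% and 0.331%), Serpinb9d (1.18%) and Serpinb9h (58.8%), of which only Serpina3k was tested.

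The 250 bases before the start of each copy are shown because the listed levels of the copies changed unequally while these stretches are nearly alike. Since the split of reads between copies is uncertain, a different response of the copies is not established. The sequences are from RefSeq on GRCm38.p6, all on the minus strand, written 5′ to 3′, and capitals mark bases that differ from Serpina1a or are inserted against it in a pairwise alignment, end overhangs left aside. They lie at chr12:103863620-103863869 (Serpina1a), chr12:103738190-103738439 (Serpina1b), chr12:103904951-103905200 (Serpina1c), chr12:103773634-103773883 (Serpina1d) and chr12:103956898-103957147 (Serpina1e).
Serpina1a: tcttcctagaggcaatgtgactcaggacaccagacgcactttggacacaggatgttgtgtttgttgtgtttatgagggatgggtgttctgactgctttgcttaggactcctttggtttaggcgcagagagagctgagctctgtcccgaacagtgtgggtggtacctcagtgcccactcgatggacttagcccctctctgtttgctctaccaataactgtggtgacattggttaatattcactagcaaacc
Serpina1b: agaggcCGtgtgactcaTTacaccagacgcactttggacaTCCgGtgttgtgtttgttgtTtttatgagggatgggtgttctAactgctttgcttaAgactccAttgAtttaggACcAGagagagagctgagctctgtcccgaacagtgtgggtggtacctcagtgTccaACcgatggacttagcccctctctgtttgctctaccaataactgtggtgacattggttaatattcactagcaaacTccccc
Serpina1c: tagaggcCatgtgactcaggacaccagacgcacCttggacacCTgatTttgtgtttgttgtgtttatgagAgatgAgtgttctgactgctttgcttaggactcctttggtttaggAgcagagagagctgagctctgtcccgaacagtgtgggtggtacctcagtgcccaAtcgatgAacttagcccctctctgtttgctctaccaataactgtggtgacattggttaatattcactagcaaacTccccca
Serpina1d: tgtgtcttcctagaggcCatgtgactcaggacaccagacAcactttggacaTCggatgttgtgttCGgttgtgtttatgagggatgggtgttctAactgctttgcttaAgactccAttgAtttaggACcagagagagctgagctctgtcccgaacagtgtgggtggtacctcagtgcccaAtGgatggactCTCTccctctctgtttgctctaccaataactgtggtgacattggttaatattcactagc
Serpina1e: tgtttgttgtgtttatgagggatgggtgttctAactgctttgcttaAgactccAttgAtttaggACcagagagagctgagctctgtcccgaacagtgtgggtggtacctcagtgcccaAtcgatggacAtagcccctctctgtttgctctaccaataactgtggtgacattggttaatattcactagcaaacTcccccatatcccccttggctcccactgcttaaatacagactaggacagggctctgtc

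Within the overlaps, identity to Serpina1a was 95.5% for Serpina1c, 95.3% for Serpina1e, 92.7% for Serpina1d and 91.4% for Serpina1b. Serpina1e overlaps Serpina1a over 193 bases only, since its annotated start lies further downstream. All 5 stretches hold the letters AGAACA or their reverse complement, part of the motif that the glucocorticoid receptor binds, which 16.1% of all 32851 promoter stretches of this length hold on either strand. Of 46 serpin stretches, 18 (39.1%) hold them, and the 5 copies, being nearly alike, are not independent cases. The stretches of Serpine2 and Serpini1, the genes called with both 5 and 6 PBS mice, do not hold these letters. The part of these sequences in the different levels was not tested.

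In the FLX mice Serpina1a ranged from 17.3 to 99.7 FPKM (median 42.5), which overlaps both other groups. Its mean of 49.4 ± 28.4 FPKM (n = 6) was lower than in PBS by a log2 fold change of -0.88 ± 0.31, without a call (edgeR adjusted p = 0.240). The highest value was that of FLX replicate 4 and the lowest that of FLX replicate 5. The Serpina1a share of the copies was 17.8% ± 4.60 in FLX, below PBS (exact permutation p = 0.0173, n = 6 and 5, Benjamini-Hochberg adjusted p = 0.0519 over the 18 tests, and with all 6 PBS mice exact permutation p = 0.00866, adjusted 0.0312) and 2.22 points above Ctrl (exact permutation p = 0.333, n = 6 and 6).

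Serpina3n, the best known mouse counterpart of alpha-1 antichymotrypsin and an acute phase gene in many tissues, was low and variable. It was at 0.0857 to 0.544 FPKM in Ctrl (median 0.299) and at 1.54, 0.548, 0.881, 2.11 and 3.33 FPKM in PBS replicates 1 to 5. The lowest PBS mouse lay just above the highest Ctrl mouse. The log2 fold change was 2.41 ± 0.78 without a call (edgeR adjusted p = 0.0967), and the exact permutation test on log2(FPKM + 0.1) gave p = 0.00433 (n = 5 and 6). PBS replicate 6 was at 24.1 FPKM, and with all 6 PBS mice the log2 fold change came to 4.05 (edgeR adjusted p = 0.0291).

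In FLX versus Ctrl, Serpina3n was the only serpin called, with a log2 fold change of 3.01 ± 0.77 (edgeR adjusted p = 0.0391). The FLX mice ranged from 0.0914 to 10.8 FPKM (median 1.51), and FLX replicate 1 lay within the Ctrl range. The call rested on FLX replicate 5, at 10.8 FPKM, without which the log2 fold change was 1.78 and the edgeR adjusted p 0.135. That mouse and PBS replicate 5, at 3.33 FPKM, are the mice with the high fat markers. Without both, the log2 fold changes of Serpina3n were 1.78 in FLX versus Ctrl (edgeR adjusted p = 0.120) and 2.04 in PBS versus Ctrl (edgeR adjusted p = 0.0702). The part of fat tissue in the values of these mice was not tested. The call was also lost without any of Ctrl replicates 1, 2, 4, 5 or 6, and with all 6 PBS mice in the fit (edgeR adjusted p = 0.117). limma called Serpinb6b in its place (adjusted p of Serpina3n = 0.109), and DESeq2 called 5 of 25, Serpina3n, Serpinb6b, Serpine2, Serping1 and Serpinh1. Of all genes, limma called 5.99% and DESeq2 9.91%.

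Its promoter stretch is given because this gene moved most among the called ones that were higher (RefSeq, GRCm38.p6, plus strand, chr12:104406458-104406707, 5′ to 3′). The capitals mark the letters AGAACA, part of the glucocorticoid receptor motif, found once on either strand from 183 to 178 bases before the start. The letters TTCNNNGAA, to which STAT factors bind, and TATAAA were not found in this window on either strand.
Serpina3n: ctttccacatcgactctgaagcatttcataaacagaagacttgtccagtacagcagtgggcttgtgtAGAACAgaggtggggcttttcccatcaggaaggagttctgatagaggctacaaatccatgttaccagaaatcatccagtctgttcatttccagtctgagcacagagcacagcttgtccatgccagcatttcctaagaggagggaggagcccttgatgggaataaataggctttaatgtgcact

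Of the other Serpina3 genes, Serpina3k was at 0.0560 ± 0.0354 FPKM in Ctrl and 0.584 ± 0.538 FPKM in PBS (log2 fold change 3.31 ± 1.06, edgeR adjusted p = 0.0920). PBS replicates 4 and 5 held the high values, 0.878 and 1.37 FPKM. Serpina3k shares its annotated start with Serpina3m, so their counts are uncertain. Serpina3g, expressed in haematopoietic cells, was lower in FLX than in PBS by a log2 fold change of -1.18 ± 0.36 without a call (edgeR adjusted p = 0.160), and DESeq2 called it. Its 5 PBS values of 0.972, 1.16, 2.39, 3.60 and 1.02 FPKM overlapped the FLX range of 0.523 to 1.21 FPKM. Summed neutrophil markers were also higher in each PBS mouse than in any FLX mouse, and their part in this difference was not tested.

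Serpina7, thyroxine-binding globulin, was near the limit of detection. It was at 0.0151 to 0.155 FPKM in Ctrl (median 0.0413), at 0.0126 FPKM in PBS replicate 4, and listed at 0 in the other 4 PBS mice. FLX mice ranged from 0.0176 to 0.156 FPKM (median 0.0391), and all 6 lay above the 5 PBS mice. The 5 PBS mice held 3 counts in all and the 6 Ctrl mice 84, a ratio per total count of 0.0432 with an exact 95% interval of 0.00874 to 0.131, which covers counting error only and is too narrow where counts exceed sequenced fragments. The fitted log2 fold change of -4.23 (edgeR adjusted p = 0.0309) depends on how such low counts are handled. PBS replicate 6 held 98 counts (0.471 FPKM), more than any other mouse, and with it the direction turned, to a log2 fold change of 0.30 (edgeR adjusted p = 0.924). The call was lost without any of PBS replicates 1, 2, 3 and 5 (highest edgeR adjusted p = 0.0929), in the limma fits (lowest adjusted p = 0.170), and with no filter on low counts, the replicate block, FLX replicates 1 and 2 only or without the mice high in fat markers (edgeR adjusted p of 0.0548 to 0.0864). Without the mice high in fat markers the log2 fold change was -3.95, against -4.23 with them, and the part of fat tissue was not tested. DESeq2 gave no adjusted p for this gene.

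Among regulators of plasmin and coagulation, Serpine2 kept its call in PBS versus Ctrl most widely. Serpine2, protease nexin 1, inhibits thrombin, urokinase and plasmin at cell surfaces. The gene lies at chr1:79794197-79858696 on the minus strand (GRCm38). It was at 1.15 to 1.76 FPKM in Ctrl (median 1.52) and at 1.93, 2.64, 2.11, 2.39 and 2.56 FPKM in PBS replicates 1 to 5. All 5 lay above the Ctrl range. The log2 fold change was 0.64 ± 0.13 (edgeR adjusted p = 0.0100). It stayed called on leaving out each of the 17 mice in turn (edgeR adjusted p of 0.00480 to 0.0304) and under all 13 alternative fits (adjusted p of 3.5e-04 to 0.0246). PBS replicate 6 was at 5.66 FPKM, above every other mouse, and with all 6 PBS mice the log2 fold change came to 0.93. Summed mesenchyme markers (8 genes) were also higher in each of the 5 PBS mice (98.5 to 132 FPKM) than in any Ctrl mouse (71.2 to 86.3 FPKM). PBS replicate 6 was at 556 FPKM. Acta2 was called as higher among them, and with all 6 PBS mice Ren1 was too. Summed proximal tubule markers were lower, although Cyp4b1 alone of these was called and 4 of 8 had a log2 fold change above 0. The part of both sets of markers in the levels of Serpine2 and of Serping1 was not tested. FLX mice were at 1.70 to 2.92 FPKM (median 1.97), between the other groups and overlapping both. FLX versus PBS gave a log2 fold change of -0.26 ± 0.13 (edgeR adjusted p = 0.495) and FLX versus Ctrl one of 0.39 ± 0.13 (edgeR adjusted p = 0.0937).

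Serpinf2, which blocks plasmin directly, went from 145 ± 27.7 in Ctrl to 120 ± 22.2 FPKM in PBS and 157 ± 8.07 FPKM in FLX. Each FLX mouse (148 to 169 FPKM) lay above each PBS mouse (95.6 to 148 FPKM), but the log2 fold change of 0.30 ± 0.14 was not called (edgeR adjusted p = 0.414). Summed proximal tubule markers likewise lay lower in each PBS mouse (1828 to 1979 FPKM) than in any FLX mouse (2053 to 2526 FPKM). Of the 8 markers, only Cyp4b1 had a log2 fold change above 0 in FLX versus PBS, and their median was -0.10. The part of these markers in the values of Serpinf2 and of the Serpina1 copies was not tested. Serpinc1 and Serpind1 were not called in any comparison (lowest edgeR adjusted p = 0.742). Serpine3, of clade E, was not tested and reached at most 0.0456 FPKM in any mouse.

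The proteases these inhibitors act on were read from the same fit, with lists of partners chosen with earlier results of these data known. None of the 12 genes of plasminogen activation was called by edgeR in any comparison with 5 PBS mice. At an unadjusted p under 0.05, 4 passed in PBS versus Ctrl (17.9% of all genes), 0 in FLX versus PBS (11.1%) and 6 in FLX versus Ctrl (20.4%). DESeq2 called 2, 0 and 2 of them, and limma none. Urokinase (Plau) went from 185 ± 29.6 in Ctrl to 119 ± 19.99 FPKM in PBS (log2 fold change -0.63, edgeR adjusted p = 0.0955). With all 6 PBS mice, Plaur, the urokinase receptor, was called as higher. Of 18 tested genes of coagulation and contact activation, 2 rose and 2 fell in PBS, where 2.14% of all genes rose and 1.67% fell. The thrombin receptors Thbd, thrombomodulin, and F2r rose by log2 fold changes of 0.73 and 0.74 (edgeR adjusted p = 0.00527 and 0.0246). Tissue factor (F3) fell by 0.54 and protein C (Proc) by 0.48 on the log2 scale (edgeR adjusted p = 0.0227 and 0.0349). In FLX versus Ctrl, Thbd was also higher and F3 lower. With all 6 PBS mice in the fit, Proc was not called in PBS versus Ctrl, nor were Thbd and F3 in FLX versus Ctrl.

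Serping1, the inhibitor of the C1 proteases of complement, was at 18.03 to 24.17 FPKM in Ctrl (median 21.1) and at 26.0, 27.5, 33.6, 24.3 and 37.0 FPKM in PBS replicates 1 to 5. The groups did not overlap, with PBS replicate 4 just above the highest Ctrl mouse. The log2 fold change was 0.49 ± 0.15 (edgeR adjusted p = 0.0845), and with PBS replicate 6, at 54.6 FPKM, it was 0.66 (edgeR adjusted p = 0.0425). FLX mice were at 22.8 to 52.5 FPKM (median 28.2), with a log2 fold change against PBS of -0.02 ± 0.15 (edgeR adjusted p = 0.989) and against Ctrl of 0.47 ± 0.15 (edgeR adjusted p = 0.0775). Its targets C1ra and C1s1 were higher in FLX than in Ctrl, by log2 fold changes of 0.53 and 0.58 (edgeR adjusted p = 0.0291 for both). Of 11 complement proteases, C2 and Cfb were lower in PBS than in Ctrl (edgeR adjusted p = 0.0130 and 0.0227). With all 6 PBS mice in the fit, Cfb kept its call, while C2 and, in FLX versus Ctrl, C1ra and C1s1 lost theirs. Of all genes, 1.67% were called as lower in PBS and 2.08% as higher in FLX than in Ctrl.

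Of the 9 tested intracellular inhibitors of clade B, edgeR called none in any comparison. At an unadjusted p under 0.05, 1 passed in PBS versus Ctrl and 2 in each of the others, against 17.9% of all genes in PBS versus Ctrl, 11.1% in FLX versus PBS and 20.4% in FLX versus Ctrl. DESeq2 and limma each called Serpinb6b alone, in FLX versus Ctrl. Serpinb1a, an inhibitor of neutrophil serine proteases, was at 7.72 ± 1.31 FPKM in Ctrl, 7.20 ± 0.817 in PBS and 7.499 ± 0.947 in FLX. Serpinb9, which inhibits granzyme B, was at 6.99 ± 0.766, 6.82 ± 1.56 and 7.70 ± 1.21 FPKM. Serpinb6a, which inhibits cathepsin G among others, was at 4.85 ± 0.233, 4.99 ± 0.623 and 5.53 ± 1.11 FPKM, and its reads may include some of Ripk1 and Nqo2, which overlap it on the other strand, if strand was not used in counting. Their log2 fold changes in PBS versus Ctrl lay between -0.10 and 0.04 with SE of 0.10 to 0.13. Serpinb6b was at 2.86 to 3.91 FPKM in Ctrl (median 3.38), 2.61 to 3.78 in the 5 PBS mice and 3.83 to 6.41 in FLX (median 4.38). Each FLX mouse was above each PBS mouse, and 5 of the 6 above all Ctrl mice, with a log2 fold change of 0.41 ± 0.12 in FLX versus Ctrl (edgeR adjusted p = 0.0669) and 0.36 ± 0.13 in FLX versus PBS (edgeR adjusted p = 0.248). Of 8 tested leukocyte proteases, edgeR and limma called none in any comparison, and DESeq2 called granzyme A (Gzma) in PBS versus Ctrl, the 1 gene with an unadjusted p under 0.05 there (0 in FLX versus PBS and 1, also Gzma, in FLX versus Ctrl).

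Serpini1, neuroserpin, an inhibitor of tissue plasminogen activator best known from neurons (chr3:75557547-75643495, plus strand, GRCm38), was at 0.113 to 0.262 FPKM in Ctrl (median 0.219) and at 0.308, 0.293, 0.274, 0.473 and 0.506 FPKM in PBS replicates 1 to 5. All lay above the Ctrl range, as did PBS replicate 6 at 0.527 FPKM. The log2 fold change was 0.86 ± 0.23 (edgeR adjusted p = 0.0461), and 0.94 with all 6 PBS mice (edgeR adjusted p = 0.0239). FLX mice were at 0.210 to 0.380 FPKM (median 0.314). The call was lost on leaving out any of Ctrl replicates 1, 2, 4 and 5, PBS replicates 1, 4 and 5 or FLX replicates 2, 3 and 6, with edgeR adjusted p up to 0.141, and in 9 of 13 alternative fits, among them limma. Without the mice high in fat markers the log2 fold change was 0.74, against 0.86 with them, and the edgeR adjusted p 0.104. The part of fat tissue in the Serpini1 values was not tested.

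Serpinh1, the collagen chaperone Hsp47, was at 21.6 to 36.5 FPKM in Ctrl (median 35.2), at 49.7, 58.4, 46.5, 36.2 and 28.2 FPKM in PBS and at 34.4 to 87.7 FPKM in FLX (median 49.4). The groups overlapped, and neither PBS versus Ctrl (log2 fold change 0.41 ± 0.22, edgeR adjusted p = 0.333) nor FLX versus Ctrl (0.58 ± 0.21, edgeR adjusted p = 0.122) was called. Of 10 collagen genes and collagen enzymes, Col6a1, Col6a2 and the prolyl hydroxylase P4ha1 were higher in PBS than in Ctrl (log2 fold changes of 0.78, 1.09 and 0.64, edgeR adjusted p of 0.00471 to 0.0167). Of all genes, 2.14% were called as higher in PBS and 2.08% as higher in FLX than in Ctrl. Col6a1 and Col6a2 were also higher in FLX than in Ctrl. With all 6 PBS mice in the fit, P4ha1 was not called in PBS versus Ctrl, nor was Col6a1 in FLX versus Ctrl. Summed mesenchyme markers, which hold collagens themselves, were 71.2 to 86.3 FPKM in Ctrl, 98.5 to 132 in the 5 PBS mice and 94.1 to 184 in FLX. Their part in these differences was not tested.

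Serpinf1, pigment epithelium-derived factor, another member without protease inhibition, was at 0.825 ± 0.225 FPKM in Ctrl, 1.42 ± 0.960 in PBS and 1.74 ± 1.19 in FLX. The highest values were those of FLX replicate 5 (3.43 FPKM), PBS replicate 5 (3.01 FPKM) and FLX replicate 4 (2.87 FPKM), and the first pair are the mice with high fat markers. No comparison was called (lowest edgeR adjusted p = 0.214).

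In FLX versus PBS, no serpin was called by edgeR with 5 or with 6 PBS mice, where 0.726% and 0.557% of all genes were. At an unadjusted p under 0.05, 9 of the 32 passed (11.1% of all genes did), or 8 of 30 with all 6 PBS mice (12.2%). Serpina7, Serpinb6b and Serpinf2 were the higher ones, and for each of these 3 the groups did not overlap, against 2.92% of all genes. With all 6 PBS mice only Serpinf2 kept its groups apart, and the log2 fold change of Serpina7 turned from 4.30 to -0.23 and that of Serpina3n from 0.60 to -1.04, without a call (edgeR adjusted p = 0.968 and 0.715). The 6 lower ones were Serpina1a, Serpina1c, Serpina1f, Serpina3g, Serpina3k and Serpinb8. DESeq2 called 1 of 25, Serpina3g, against 3.06% of all genes, and limma called none, against 1.26%. The median log2 fold change of the 32 was -0.01, with 15 above 0, as were 49.5% of all genes.

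In FLX versus Ctrl, 1 of the 32 was called, against 3.67% of all genes, and 0 of 30 with all 6 PBS mice in the fit, against 1.77%. At an unadjusted p under 0.05, 9 passed, all higher in FLX, against 20.4% of all genes in either direction and 10.2% higher. With all 6 PBS mice 8 passed, against 17.7%. The log2 fold change was above 0 for 27 of the 32 (48.8% of all genes) with a median of 0.37, and for none did the groups keep apart (3.4% of all genes). PBS versus Ctrl and FLX versus Ctrl share the Ctrl mice, so that a Ctrl mean that is low by chance moves both.

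**Figure D4:**
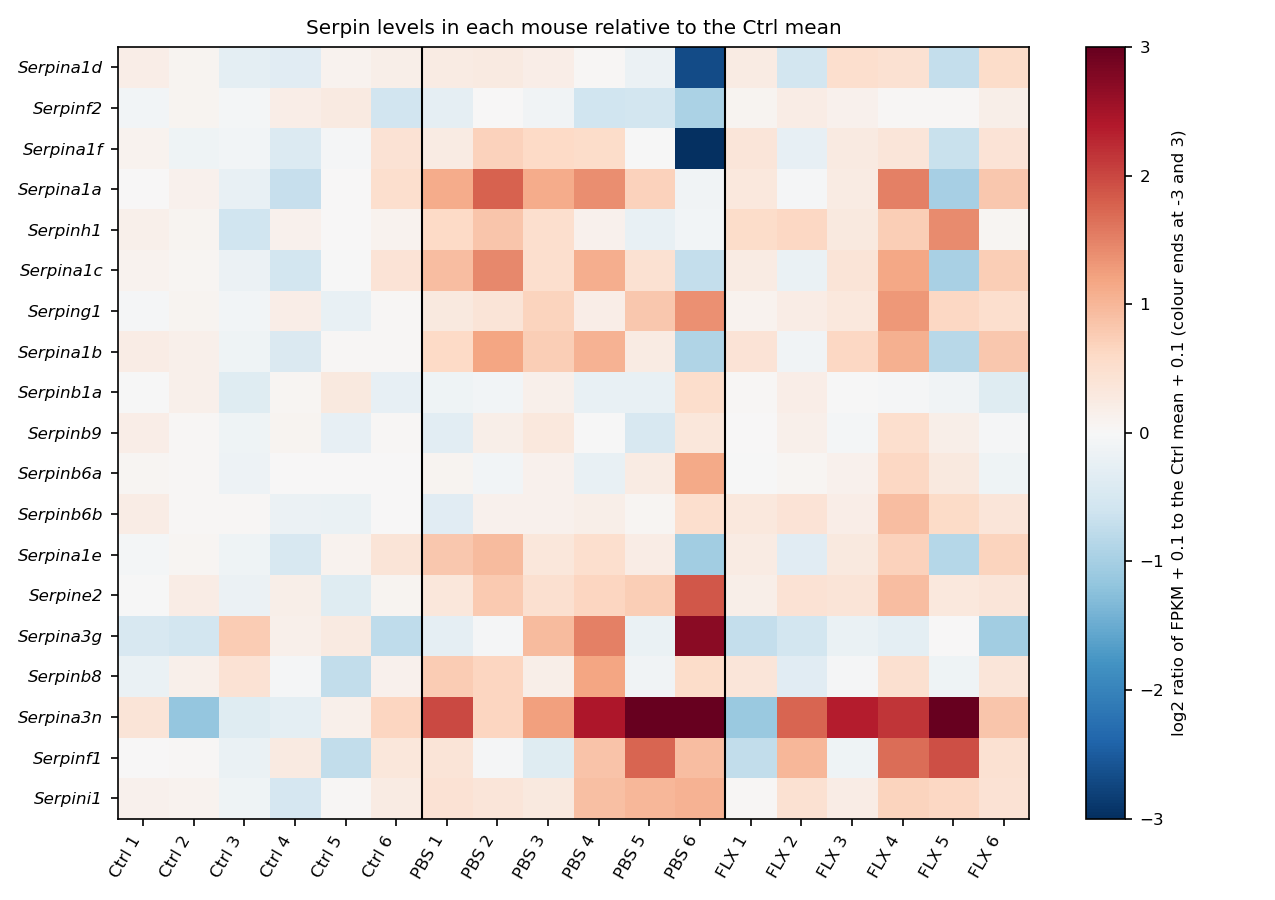
Log2 ratio of FPKM + 0.1 in each mouse to the Ctrl mean + 0.1, for the 16 serpins with a Ctrl mean over 1 FPKM and 3 others, red above and blue below the Ctrl mean. PBS replicate 6 is blue for Serpina1d (22.5 FPKM) and Serpina1f (4.99 FPKM) and red for Serpina3n (24.1 FPKM), and Serpina1a is red in FLX replicate 4 (99.7 FPKM) and blue in FLX replicate 5 (17.3 FPKM).

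Across the partner lists, 142 of 156 genes were tested, and 25 were called in PBS versus Ctrl (17 higher, 8 lower), or 17.6% against 3.81% of all genes. The lists include acute phase and glucocorticoid-induced genes beside proteases, and were chosen with earlier results of these data known. The share is therefore no test of serpin partners. Of the 25 called genes, 9 were among 10 genes induced by glucocorticoids, with Fkbp5 at a log2 fold change of 1.23 (edgeR adjusted p = 0.00237) and Per1 at 2.06 (edgeR adjusted p = 1.3e-04). In FLX versus PBS 4 were called (2.82%, against 0.726% of all genes) and in FLX versus Ctrl 12 (8.45%, against 3.67%). Pzp, a broad protease trap of the alpha-2 macroglobulin family and not a serpin, fell from 8.02 to 1.24 FPKM in PBS (log2 fold change -2.67, edgeR adjusted p = 1.3e-04) and was higher in FLX than in PBS by 1.96 (edgeR adjusted p = 0.00395). The epithelial protease Tmprss9 did the same, with log2 fold changes of -1.91 and 1.45 (edgeR adjusted p = 0.00110 and 0.0244), although with all 6 PBS mice the second was not called (edgeR adjusted p = 0.135). Angiotensinogen (Agt), which has the serpin fold but no Serpin symbol, was not called (log2 fold change 0.25 in PBS versus Ctrl, edgeR adjusted p = 0.428). Of its cascade, Ace and Mas1 fell in PBS (edgeR adjusted p = 0.0226 and 0.0200) and Enpep rose (edgeR adjusted p = 0.0151). With all 6 PBS mice Ace was not called (edgeR adjusted p = 0.0960). Of 15 tested acute phase genes only Fga was called in PBS versus Ctrl, at a log2 fold change of 1.21 (edgeR adjusted p = 0.0200), and with all 6 PBS mice 6 were.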

How the data were processed

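Poly(A) RNA of the right kidney of 18 mice was sequenced in read pairs with a kit that marks strand. The authors trimmed the reads, aligned them to GRCm38 and assembled transcripts with StringTie, per the study's methods with fastp and HISAT-3N, while the submitters' processing notes also name cutadapt 1.9, HISAT2 2.0.4 and StringTie 1.3.4d. The deposited table holds, per gene and mouse, an FPKM value and a whole-number count. How the authors derived the deposited count, with or without strand, was not found in those notes or methods, and since low counts favour multiples, counts may exceed sequenced fragments. Total counts were 72149987 to 79061296 in 14 mice and 48928823 to 52073640 in FLX replicates 3 to 6, which measures low genes less precisely there.

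Counts of all genes were fitted with edgeR 4.0.16 (TMM scaling, filterByExpr, 1 fit of 17 mice in 3 groups, no covariate) and the serpin genes read out. p-values were adjusted over the 20251 genes tested. On simulated counts for PBS versus Ctrl, 36 of 100 genes with a log2 change of 1 and 98 of 100 with a change of 2 were recovered, with 6 false calls. These counts were drawn with the same dispersion for every gene, so the recovery does not carry over to genes that vary less or more. Single genes were compared with exact two-sided permutation tests on log2(FPKM + 0.1) (scipy). The shares of the alpha-1 antitrypsin copies were compared with the same test on the percentages themselves. Alternatives were all 6 PBS mice, other scalings, no filter, DESeq2 1.42.0, limma 3.58.1 on log2(FPKM + 0.1) and log2(FPKM + 1), fits of 2 groups, a replicate block, thinned or halved counts, FLX replicates 1 and 2 only, and leaving out each mouse. Leaving out the mice high in fat markers was added after the data were seen. Labels give each sample as a mouse of its group, and no sources used here say that mice were housed or processed in batches. Genes were named where called, where among the 3 smallest p of a comparison or the 3 highest of a clade, or from a list of 19. The members, the lists of partners and markers, and the omission of PBS replicate 6 were chosen with earlier results of these data known. Of the 49 genes, 40 matched a RefSeq promoter by symbol. Single genes of the family and of the partner lists are not reported here, but stay in the counts.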

Additional observations from a re-analysis of the deposited data

Results flagged for a closer look

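Within groups, 88 sets of values of the named genes were screened for a mouse far from the rest of its group by the gap on the log2(FPKM + 0.1) scale, and 11 were marked. Chance marks about 1 in 20 groups. PBS replicate 6 accounts for 6 of them. It was far below the other 5 PBS mice in Serpina1d (22.5 FPKM, against 128 to 175), Serpina1e (1.35, against 3.41 to 5.71) and Serpina1f (4.99, against 42.3 to 69.0). It was far above them in Serpina7 (0.471 FPKM, against 0 to 0.0126), Serpinb6a (10.9, against 4.16 to 5.77) and Serpine2 (5.66, against 1.93 to 2.64). Its summed proximal tubule markers were the lowest and its summed hepatocyte markers the highest of all mice. It was also highest in summed mesenchyme markers (556 FPKM, against 71.2 to 184 in the others), neutrophil markers (66.5, against 0.453 to 26.2) and endothelium markers (144, against 46.0 to 98.7). With this mouse the median log2 fold change of the mesenchyme markers in PBS versus Ctrl was 0.51, against 0.36 without it. Acta2 and Ren1 alone of them were then called. The part of all these markers in the serpin values of PBS replicate 6 was not tested.

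FLX replicate 4 stood above the other FLX mice in Serpine2 (2.92 FPKM, against 1.70 to 2.06). Ctrl replicate 3 stood below the other Ctrl mice in Serpinh1 (21.6 FPKM, against 33.2 to 36.5) and in Serpinb6a (4.38, against 4.90 to 5.03). Among the 5 PBS mice, PBS replicate 1 was low in Serpinb6b (2.61 FPKM, against 3.45 to 3.78), and PBS replicate 4, at 0.0126 FPKM, was the only one with a Serpina7 value above 0.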

How the results depend on the processing

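In PBS versus Ctrl, where 4 serpins were called, leaving out 1 mouse gave 1 to 6 calls, the 1 being Serpine2 without Ctrl replicate 2 or PBS replicate 1, and the 6 without FLX replicate 4 or 5. The replicate block gave 2, as did no filter on low counts, both limma fits and counts thinned to the smallest total, each time Serpina1a and Serpine2, and here the replicate numbers did not pair the mice (correlations of 16 same-numbered pairs from -0.20 to 0.23). Fits of 2 groups only and with FLX replicates 1 and 2 only gave 7 calls, and DESeq2 gave 8. Among the called values, 1 reversed, that of Serpina7, to 0.30 with all 6 PBS mice. With all 6, signs also turned for values without a call, in PBS versus Ctrl for Serpina1d, Serpina3b, Serpinb1a and Serpinb9 and in FLX versus PBS for genes that include Serpina1d, Serpina3n, Serpina7 and Serpinb6a. In FLX versus PBS, where 0 were called, leaving out 1 mouse gave 0 throughout, DESeq2 gave 1 and the study's threshold (unadjusted p under 0.05 and an absolute log2 fold change over 1) gave 3, against 1.9% of all genes. In FLX versus Ctrl, where 1 was called, leaving out 1 mouse gave 0 to 2, with 2 without Ctrl replicate 3 or FLX replicate 3. The count was 0 with all 6 PBS mice, no filter, 2 groups only, the replicate block, FLX replicates 1 and 2 only and without the mice high in fat markers, 2 after thinning, 3 at the study's threshold (2.24% of all genes) and 5 by DESeq2. Of the partner genes, 25 were called in PBS versus Ctrl (17 to 32 on leaving out 1 mouse). The 4 in FLX versus PBS became 2 to 6 on leaving out 1 mouse, 2 with all 6 PBS mice or without the mice high in fat markers, 9 by DESeq2 and 0 with FLX replicates 1 and 2 only. The 12 in FLX versus Ctrl became 5 (without Ctrl replicate 5) to 29 (without Ctrl replicate 3) on leaving out 1 mouse, 4 with all 6 PBS mice, 7 without a filter, 23 by DESeq2, 6 with the replicate block and 0 with FLX replicates 1 and 2 only. The cause of these moves was not tested. Serpina7 was below the filter, and so had no value, in 5 of the 17 fits that leave out 1 mouse. The 17 untested serpins had at most 75 counts in a mouse. Only 36 of 100 simulated log2 changes of 1 were recovered, with the same dispersion drawn for every gene. Changes of this size can thus be missed at this depth and group size for genes of such spread. How often this holds for each serpin was not tested.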
